A study of Mus musculus with 12 samples.

Results

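The 10 genes described here are Trp53, which encodes the transcription factor p53, and 9 genes that p53 is known to activate: Mdm2, Trp53inp1, Ccng1, Fas, Gdf15, Sesn1, Sesn2, Btg2 and Zmat3. They were chosen by name, as the rows of the deposited expression tables that carry these symbols, and each symbol had 1 row among 55491. All 10 passed the filter on low counts, which left 13513 genes for testing. The values come from PT-22, a mouse kidney cell line labelled as proximal tubule, and every library carries the genotype Pax2-/-, Pax8 fl/fl, Rosa-CreERT2. The line thus lacks Pax2, carries loxP sites around part of Pax8, and holds a Cre recombinase at the widely active Rosa locus that 4-hydroxytamoxifen switches on. To deplete PAX8, a transcription factor of kidney epithelium, confluent cells were given 1 µM 4-hydroxytamoxifen for 2 days. PolyA RNA was sequenced from 4 groups of 3 libraries, lettered A, B and C: untreated control cells, and treated cells at day 2, day 6 and day 12. The controls carry the same Pax2 loss and the same Cre gene as the treated cells. Neither vehicle-treated cells nor untreated cells of a later day were among the libraries analysed. The drug, Cre activity, time in culture and any PAX8 depletion therefore cannot be told apart. Whether the 3 letters of a group mark separate cultures is not stated, so p-values below measure only the spread between these libraries, which may be technical.

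p53 is held at a low level in unstressed cells mainly by the ubiquitin ligase MDM2, which marks it for degradation, and stress such as DNA damage frees it to bind DNA and switch on its target genes. Its activity is therefore set largely at the level of the protein, and the level of Trp53 mRNA is a poor guide to it. The targets include MDM2 itself, which closes a feedback loop, and genes that stop the cell cycle, prime cells for death, or adjust metabolism and redox balance. In the kidney tubule this pathway is best known from the response to ischaemic and toxic injury. An indirect branch, through the cell cycle inhibitor p21 (Cdkn1a) and the DREAM repressor complex, lowers the expression of cell cycle genes.

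p53 binds DNA through pairs of a short decamer, and the stretches below are shown because they hold that decamer close to the start site of the members. Promoters of 300 bases, from 250 before the start to 50 after it, came from RefSeq on build GRCm38.p6 and were searched for the p53 decamer consensus, which reads the same on both strands. A match was found in 2745 of 32851 mouse promoters (8.36%), and a pair of decamers at most 13 bases apart in 24 (0.0731%). Among the members, Trp53, Mdm2, Ccng1 and 1 of the starts of Sesn1 held a single decamer. Cdkn1a, the best known arrest target and no member, held a pair at 1 of its 2 starts and is shown for comparison. Btg2, Sesn2, Gdf15 and Fas held none in this window. A match is a description of letters and not of binding. The stretches lie at chr10:41887241-41887300 on the plus strand (Sesn1), chr10:117710910-117710969 on the minus strand (Mdm2), chr11:40755437-40755496 on the minus strand (Ccng1), chr11:69580259-69580318 on the plus strand (Trp53) and chr17:29090881-29090962 on the plus strand (Cdkn1a). They are written 5′ to 3′ along the gene, with the decamers in capitals.
Sesn1: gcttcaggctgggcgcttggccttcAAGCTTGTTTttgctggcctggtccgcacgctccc
Mdm2: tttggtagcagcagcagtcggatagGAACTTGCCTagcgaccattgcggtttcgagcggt
Ccng1: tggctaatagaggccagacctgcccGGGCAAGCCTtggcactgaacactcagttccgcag
Trp53: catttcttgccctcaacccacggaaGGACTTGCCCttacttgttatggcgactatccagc
Cdkn1a: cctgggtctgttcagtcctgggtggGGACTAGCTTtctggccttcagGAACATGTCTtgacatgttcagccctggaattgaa

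Library totals ran from 4326667 to 11654959 counts. The row for Pax8 held 225 ± 3.46 CPM in control, then 402 ± 51.0, 256 ± 10.9 and 242 ± 10.5 on days 2, 6 and 12 (mean ± SD over 3 libraries, as throughout). The total for the gene did not fall. It was higher than control by 0.83 on the log2 scale at day 2 (edgeR adjusted p = 5.59e-12) and by 0.18 at day 6 (edgeR adjusted p = 0.0181). At day 12 the difference of 0.10 did not pass the test (edgeR adjusted p = 0.189). This total also takes in reads of exons outside any deleted stretch, so it does not check the deletion. CPM here are counts scaled to 1000000 per library with TMM factors, and TPM are the deposited values corrected for transcript length. Of 15 proximal tubule markers, 10 passed the filter on low counts, and Slc34a1, Slc5a2 and Slc5a12, the phosphate and glucose or lactate carriers of the mature tubule, were at 0 in every library. The summed level of the 15 was 2481 to 2627 CPM in control, 1534 to 1643 at day 2, 1383 to 1628 at day 6 and 830.2 to 1043 at day 12. Aqp1, the water channel of that segment, went the other way, at 173, 558, 1044 and 659 CPM in the order of time, and the other 14 summed to 2371, 1034, 483 and 293 CPM. The 10 markers of fibroblasts and smooth muscle summed to 41.8 to 46.9 CPM in control, 80.9 to 92.8 at day 2, 85.9 to 119 at day 6 and 337 to 390 at day 12, with Col3a1 and Pdgfra at 0. Acta2, the actin of smooth muscle, went from 3.11 CPM in control to 13.7, 65.3 and 293 on days 2, 6 and 12. The other 9 summed to 40.9, 72.02, 38.6 and 63.0 CPM in the order of time, mostly Cnn1. From control to day 12 Dcn went from 0.246 to 17.8 CPM, Myh11 from 0.0697 to 2.18 and Pdgfrb from 0.0768 to 1.21. Cnn1 held 38.3 and 38.8 CPM and Col1a1 2.20 and 3.03, and Col1a2 and Lum had at most 1 count in a library. Summed markers of endothelium, leukocytes, collecting duct, and distal tubule with loop of Henle stayed under 3 CPM in every library, and those of podocytes, nearly all Synpo, lay between 89.5 and 127 CPM. These markers moved over the same days as the members, and their part in the results was not tested. In bulk libraries, fewer cells of a type and less RNA per cell cannot be told apart.

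In these cells the targets of p53 did not move as a block. By day 12 Trp53inp1, Ccng1, Fas, Mdm2 and Btg2 stood well above control while Gdf15, Sesn1 and Cdkn1a stood below it, and the mRNA of p53 itself differed by at most 0.16 on the log2 scale from its control level. With edgeR's quasi-likelihood test and Benjamini-Hochberg adjustment over all 13513 genes, 2 of the 10 members rose and 2 fell at day 2, where 10.3% of all tested genes rose and 10.9% fell. At day 6, 4 rose and 3 fell, beside 26.7% and 27.6% of all genes. At day 12, 6 rose and 2 fell, beside 26.1% and 26.6%. The counts of rises include Fas, which passed the filter on low counts only through treated libraries and so had to differ; the other 9 members gave 1, 3 and 5 rises at the 3 days and 2, 3 and 2 falls. The median log2 fold change of the 10 members against control, Fas included, was 0.10 at day 2, -0.05 at day 6 and 0.47 at day 12, while the median over all tested genes was within 0.01 of 0 at each day. Below, a gene is said to rise or fall only where it passed this test. All 3 comparisons use the same control libraries, and with 3 libraries against 3 the smallest p that an exact permutation test of 1 gene can give is 0.1.

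**Figure D1:**
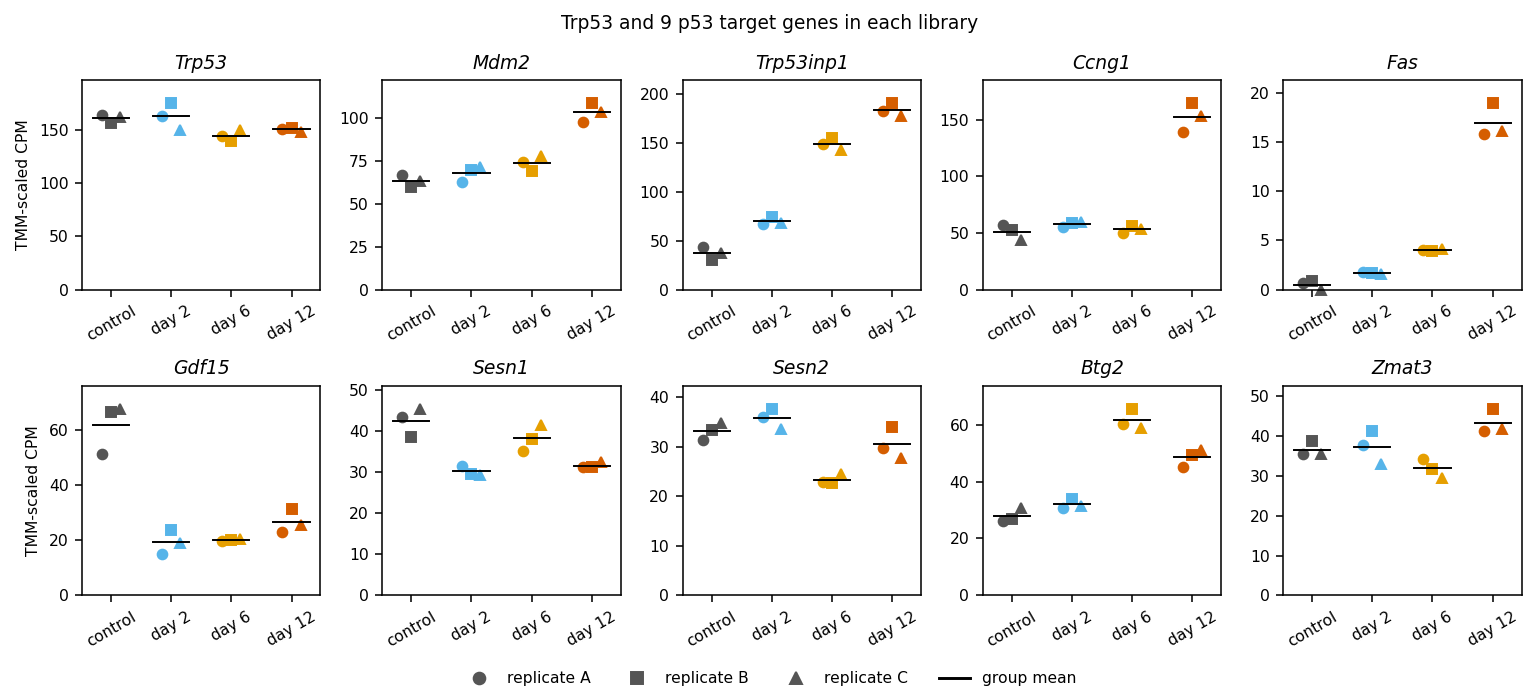
Level of each of the 10 genes in each of the 12 libraries, in TMM-scaled CPM (vertical axes, linear, from 0, with a separate scale for each gene). Points are libraries, with their shape giving the replicate letter, and bars are group means. Fas, Ccng1 and Mdm2 stand highest at day 12, Btg2 at day 6, and Gdf15 in the control libraries.

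Trp53 lies on chromosome 11 (69580359 to 69591873, plus strand, GRCm38). Its level was 164, 156 and 162 CPM in the control libraries, 163, 176 and 150.0 at day 2, 144, 139.6 and 149 at day 6, and 151, 152 and 148 at day 12. The libraries of days 6 and 12 all lay below the lowest control library, while those of day 2 lay on both sides of the controls. The log2 difference was 0.01 at day 2 (95% interval -0.11 to 0.13), -0.16 ± 0.06 (SE) at day 6 with an edgeR adjusted p of 0.0237, and -0.10 at day 12 (interval -0.22 to 0.02, adjusted p = 0.165). The fall at day 6 was small and did not hold everywhere: the edgeR adjusted p was 0.0752 with no filter on low counts, 0.06005 to 0.0996 without control A, control C, day 6 A or day 6 B, and 0.458 with limma on TPM. In TPM the control libraries held 145 to 162 and the day 6 libraries 143 to 155, which overlap. With limma on log2(TPM + 1) Trp53 stood at -0.06 at day 6, while the median of all genes was 0.09 there and -0.006 in edgeR. A processed copy of the gene, Trp53-ps, held 0 to 2 counts in a library.

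Among the genes that control p53, the wider list of 25 tested genes, chosen with earlier results of these data known, went both ways: 0 rose and 2 fell at day 2, 5 and 7 at day 6, and 3 and 6 at day 12. At day 2, 1 gene was higher at an unadjusted p under 0.05 in edgeR and 0 with DESeq2 or limma. Those called in either direction were 2, 12 and 9 of 25, beside 21.2%, 54.3% and 52.8% of all tested genes, and the median log2 fold change lay between -0.04 and 0.00. Hipk2, a kinase that phosphorylates p53, was at 126 ± 5.67 CPM in control, then 101 ± 7.94, 79.7 ± 2.04 and 74.9 ± 6.38 on days 2, 6 and 12. By day 12 it had fallen by 0.75 ± 0.07 on the log2 scale (edgeR adjusted p = 1.52e-11). Npm1, the nucleolar protein that holds ARF and can bind MDM2, fell by 0.53 on the log2 scale at day 6 and by 0.36 at day 12. Trp53bp2 and Ppp1r13b encode the related proteins ASPP2 and ASPP1, which bind p53 and favour its death targets, and they went opposite ways: at day 12 Trp53bp2 fell by 0.45 and Ppp1r13b rose by 0.71 on the log2 scale. Rchy1, the ubiquitin ligase PIRH2, fell by 0.43 at day 6. Trp63 and Trp73, the other genes of the family, had at most 9 and 2 counts in a library and were not tested. Cdkn2a, among whose products is ARF, which restrains MDM2, was at 364 CPM in control and 399 at day 12. The row is a total for the gene and gives no level for ARF by itself. Cdkn2a lies outside the rule for named genes and was added after its values were seen.

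Mdm2 (chromosome 10, 117688875 to 117710758, minus strand) encodes the ligase that degrades p53 and is itself a p53 target. Its promoter stretch above holds 1 decamer. The control libraries held 66.8, 59.8 and 63.0 CPM, those of day 2 held 62.4, 69.7 and 71.0, those of day 6 held 74.5, 69.1 and 77.9, and those of day 12 held 97.4, 108.8 and 103. Day 2 overlapped control, day 6 lay just above it and day 12 lay well above every other library. The log2 fold change was 0.10 at day 2 (interval -0.05 to 0.25), 0.22 ± 0.07 at day 6 (edgeR adjusted p = 0.0110) and 0.70 ± 0.07 at day 12 (edgeR adjusted p = 1.87e-10), a 1.63-fold rise. The day 6 rise missed the threshold without control B (edgeR adjusted p = 0.0581) or without day 6 C (0.0627). In TPM the steps were larger: 37.9 ± 3.23 in control, then 47.2 ± 4.51, 54.1 ± 3.31 and 76.7 ± 5.79 on days 2, 6 and 12. On log2(TPM + 1) limma gave 0.31 at day 2 (adjusted p = 0.0497), 0.50 at day 6 and 1.00 at day 12. TPM also divides by an estimated transcript length, which the tables used here do not hold. The median of all genes on that log2(TPM + 1) scale was -0.03, 0.09 and 0.04 at days 2, 6 and 12.

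Ccng1 (chromosome 11, 40748552 to 40755311, minus strand), encoding cyclin G1, which recruits a phosphatase to MDM2, changed at a single step. It held 56.9, 52.7 and 43.6 CPM in control, 54.95, 58.7 and 59.8 at day 2, 49.6, 56.5 and 53.1 at day 6, and 139, 165 and 153 at day 12. The first 3 groups overlapped one another, and the lowest day 12 library was more than double the highest of the others. The log2 fold change was 0.18 at day 2 (interval 0.00 to 0.37, edgeR adjusted p = 0.149), 0.06 at day 6 (interval -0.12 to 0.24) and 1.58 ± 0.08 at day 12 (edgeR adjusted p = 1.57e-17). From day 6 to day 12 it rose 2.88-fold (log2 1.53 ± 0.08, edgeR adjusted p = 2.16e-15). Without control A the day 2 difference passed the threshold (log2 0.28, edgeR adjusted p = 0.0360).

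Trp53inp1 (chromosome 4, 11156431 to 11174379, plus strand), a stress protein of autophagy and cell death that also helps to modify p53, rose at each time point. Control libraries held 43.7, 29.9 and 37.0 CPM, day 2 libraries 67.3, 74.1 and 67.7, day 6 libraries 148, 155 and 142, and day 12 libraries 182, 191 and 177. The 4 groups did not overlap and stood in the order of time. Against control the log2 fold change was 0.90 ± 0.09 at day 2, 2.00 ± 0.08 at day 6 and 2.304 ± 0.08 at day 12, with edgeR adjusted p of 1.54e-09, 2.24e-19 and 3.90e-21. That is 1.87-fold, 4.01-fold and 4.94-fold. Between days, the rise was 1.10 from day 2 to day 6 and 0.30 from day 6 to day 12 on the log2 scale (edgeR adjusted p = 4.71e-13 and 0.00210), and the second step missed the threshold with limma on TPM (log2 0.27, adjusted p = 0.194).

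Btg2 (chromosome 1, 134075170 to 134079120, minus strand), an antiproliferative protein that slows entry into S phase, peaked at day 6. Its level was 26.0, 27.0 and 30.6 CPM in control, 30.9, 33.9 and 31.3 at day 2, 60.2, 65.6 and 58.7 at day 6, and 45.3, 49.3 and 51.3 at day 12. Days 6 and 12 lay above all control and day 2 libraries, and day 12 lay below day 6. The log2 fold change against control was 0.18 at day 2 (interval -0.01 to 0.37, edgeR adjusted p = 0.179), 1.14 ± 0.08 at day 6 (edgeR adjusted p = 1.03e-13) and 0.80 ± 0.09 at day 12 (edgeR adjusted p = 9.27e-10). Between day 6 and day 12 it fell by 0.34 on the log2 scale (edgeR adjusted p = 0.00150).

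Cdkn1a, which encodes the cyclin-dependent kinase inhibitor p21 and is the classical arrest gene downstream of p53, is not among the 10 members but belongs beside Btg2. Its control libraries held 181, 214 and 203 CPM, the day 2 libraries 86.1, 78.6 and 79.9, the day 6 libraries 62.9, 71.2 and 59.2, and the day 12 libraries 103, 127 and 118. Every treated library lay below every control library, and day 12 lay above days 2 and 6. Against control it was 2.44-fold lower at day 2, 3.09-fold lower at day 6 and 1.72-fold lower at day 12 (log2 -1.29, -1.63 and -0.78; edgeR adjusted p = 1.75e-13, 1.75e-16 and 5.00e-10). After day 6 it rose 1.80-fold to day 12 (log2 0.85 ± 0.08, edgeR adjusted p = 5.94e-09). In the annotation 7.68% of its exonic bases overlap a predicted transcript on the opposite strand, and no source used here gives the strand setting of the counting; the exons of the 10 members overlapped no other gene.

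Among 13 tested arrest targets, which do not include Btg2, 3 rose and 2 fell at day 2, 6 and 5 at day 6, and 6 and 3 at day 12, with medians of -0.05, -0.08 and -0.01 on the log2 scale. Beside them, 10.3%, 26.7% and 26.1% of all tested genes rose at days 2, 6 and 12, and 10.9%, 27.6% and 26.6% fell. Gadd45a, a stress protein that restrains the G2 to M step, had a course like that of Btg2: 24.97 ± 2.28 CPM in control, then 26.0 ± 4.43, 50.8 ± 0.974 and 42.6 ± 2.15 on days 2, 6 and 12. It was up by 1.03 at day 6 (edgeR adjusted p = 2.17e-11) and by 0.77 at day 12 (edgeR adjusted p = 1.99e-08) on the log2 scale. Plk2, a polo-like kinase of the stress response, fell at day 6 (log2 -0.72) and rose at day 12 (log2 0.40), with 36.0 ± 3.73, 33.1 ± 1.11, 21.9 ± 1.37 and 47.3 ± 4.34 CPM in the order of time. Btg1, the paralogue of Btg2, rose by 0.40 at day 12. Ndrg1, a stress gene that curbs growth, rose at each day (log2 0.39, 0.26 and 0.35). Gtse1, which acts in G2 and pulls p53 out of the nucleus, fell by 0.70 at day 6, and Cdc42bpg, a kinase of the actin cytoskeleton, by 0.43 at day 2. Ptprv, a phosphatase that p53 induces in mouse cells, rose by 0.85 at day 2 and was at 6.23 ± 0.940 CPM in control and 11.2 ± 0.419 at day 2.

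Fas (chromosome 19, 34290666 to 34327772, plus strand) encodes the death receptor of the FAS ligand and had the steepest rise in proportion, from almost no reads. Control libraries held 6, 6 and 0 counts, day 2 libraries 13, 7 and 19, day 6 libraries 40, 35 and 31, and day 12 libraries 135, 169 and 157. In CPM that is 0.691, 0.830 and 0 in control, 1.77, 1.64 and 1.62 at day 2, 3.98, 3.87 and 4.13 at day 6, and 15.8, 19.0 and 16.1 at day 12. In CPM the 4 groups did not overlap. In TPM the control libraries held 0 to 3.11 and the day 2 libraries 1.97 to 2.02, which overlap. The fitted log2 fold change in edgeR was 1.79 ± 0.46 at day 2, 3.04 ± 0.38 at day 6 and 5.12 ± 0.30 at day 12. With limma on log2(TPM + 1) the day 2 difference was 0.43. With 12 counts in the control group these sizes are loose: without control C the 3 values were 1.13, 2.38 and 4.46, and without control B the later 2 were 3.54 and 5.62. Fas passed the filter on low counts only through treated libraries and so had to differ from control, and its difference from control is given as a description with no test. The step from day 6 to day 12, where every library held at least 31 counts, was 4.24-fold (log2 2.08 ± 0.20, edgeR adjusted p = 1.02e-09). With limma on log2(TPM + 0.1) this step missed the threshold (log2 2.01 ± 0.99, adjusted p = 0.253).

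**Figure D2:**
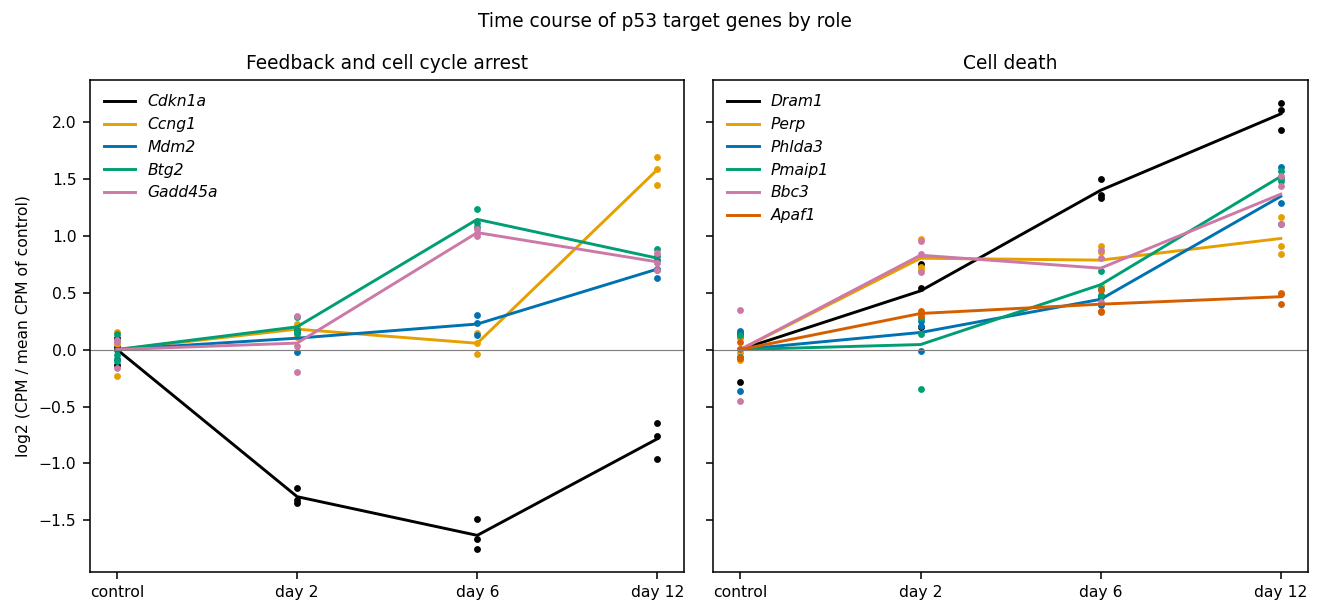
Log2 ratio of CPM to the control mean for 5 feedback and arrest genes (left) and 6 death genes (right), by group in the order of time (groups are evenly spaced, not to the scale of days). Points are libraries and lines join the group means, so that Cdkn1a runs below 0 at all 3 days while Ccng1 leaves 0 at day 12 only.

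Of 21 other tested death targets, 4 rose and 1 fell at day 2, 10 and 4 at day 6, and 11 and 1 at day 12, with medians of 0.12, 0.29 and 0.24 on the log2 scale. The shares over all tested genes were 10.3%, 26.7% and 26.1% rising and 10.9%, 27.6% and 26.6% falling at days 2, 6 and 12. Pmaip1 and Bbc3 encode NOXA and PUMA, small proteins that block survival members of the BCL2 family. Pmaip1 was at 5.06 ± 0.407 CPM in control, then 5.22 ± 1.11, 7.50 ± 0.572 and 14.5 ± 0.445 on days 2, 6 and 12 (log2 1.52 ± 0.16 at day 12, edgeR adjusted p = 5.87e-10). Bbc3 was at 3.79 ± 1.02, 6.73 ± 0.643, 6.22 ± 1.01 and 9.76 ± 1.46 CPM in the same order (log2 1.33 ± 0.20 at day 12, edgeR adjusted p = 6.79e-07). Phlda3, which blocks AKT at the membrane, rose by 1.36 at day 12, from 12.4 ± 2.39 to 31.4 ± 5.55 CPM. Dram1, a lysosomal protein of autophagy, rose by 1.38 at day 6 and 2.05 at day 12. Perp, a membrane protein of desmosomes, rose by 0.79, 0.80 and 0.98 at the 3 days, and Apaf1, the core of the apoptosome, by 0.32, 0.40 and 0.46. Tnfrsf23, a decoy receptor for the ligand TRAIL, rose by 1.25 at day 6, and Siva1, a cytoplasmic partner of death receptors, by 0.34 at day 2. Bax, the pore-forming protein of the mitochondrial pathway, was at 81.9 ± 6.97 CPM in control and 81.2 ± 5.33 at day 12 and did not pass the test at any of the 3 days; it was named after its values were seen.

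Gdf15 (chromosome 8, 70629393 to 70632456, minus strand), a secreted stress cytokine that p53 and the integrated stress response both induce, had the largest fall of the 10. Control libraries held 51.0, 66.3 and 67.6 CPM, day 2 libraries 14.96, 23.9 and 19.0, day 6 libraries 19.8, 19.9 and 20.4, and day 12 libraries 22.9, 31.2 and 25.5. The lowest control library lay above every treated library. The gene was 3.29-fold lower at day 2, 3.08-fold lower at day 6 and 2.32-fold lower at day 12 (log2 -1.72 ± 0.14, -1.62 ± 0.13 and -1.22 ± 0.13; edgeR adjusted p = 1.05e-08, 3.18e-09 and 1.12e-07). Day 12 was above day 2 by 0.50 on the log2 scale (edgeR adjusted p = 0.0112), though the groups overlapped and the call was lost without day 2 A, day 2 C or day 12 B (edgeR adjusted p = 0.0617, 0.0503 and 0.0526).

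Sesn1 (chromosome 10, 41809935 to 41908424, plus strand) and Sesn2 (chromosome 4, 132492032 to 132510501, minus strand) encode sestrins, which restrain the growth kinase mTORC1 and limit oxidative stress. Sesn1 held 43.5, 38.7 and 45.6 CPM in control, 31.6, 29.7 and 29.5 at day 2, 35.3, 38.2 and 41.5 at day 6, and 31.3, 31.3 and 32.5 at day 12. Days 2 and 12 lay below all control libraries, and day 6 overlapped control. The log2 fold change was -0.50 ± 0.09 at day 2 (edgeR adjusted p = 4.14e-05), -0.16 at day 6 (interval -0.33 to 0.01) and -0.43 ± 0.09 at day 12 (edgeR adjusted p = 6.13e-05). The decamer shown above for Sesn1 lies before a start inside the gene, not the first one.

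Sesn2 followed another course, with 31.3, 33.3 and 34.7 CPM in control, 35.9, 37.6 and 33.6 at day 2, 22.8, 22.7 and 24.5 at day 6, and 29.6, 33.9 and 27.7 at day 12. Day 6 lay below all other libraries, and days 2 and 12 overlapped control. The log2 fold change was 0.09 at day 2 (interval -0.09 to 0.28), -0.51 ± 0.10 at day 6 (edgeR adjusted p = 2.54e-05) and -0.13 at day 12 (interval -0.31 to 0.06). From day 2 to day 6 Sesn1 rose by 0.34 (edgeR adjusted p = 0.00241) and Sesn2 fell by 0.60 (edgeR adjusted p = 3.61e-06) on the log2 scale. From day 6 to day 12 Sesn1 fell by 0.27 and Sesn2 rose by 0.39 (edgeR adjusted p = 0.0225 and 0.00307). The Sesn1 call was lost without day 6 B, day 6 C, day 12 A or day 12 B (edgeR adjusted p = 0.0553, 0.131, 0.0573 and 0.0625), and the Sesn2 call without day 12 B (0.0522). With limma on log2(TPM + 1) both were lost (adjusted p = 0.0607 for Sesn1 and 0.0752 for Sesn2), and the Sesn1 call also with DESeq2 (0.0506). Sesn3, the third sestrin gene, was at 155 ± 5.30, 164 ± 14.6, 208 ± 2.25 and 266 ± 15.4 CPM in the order of time and rose by 0.43 at day 6 and 0.78 at day 12 (edgeR adjusted p = 3.42e-07 and 3.50e-13).

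Of 30 other tested targets in metabolism, redox balance and autophagy, Sesn3 included, 8 rose and 2 fell at day 2, 13 and 6 at day 6, and 16 and 5 at day 12, with medians of 0.09, 0.14 and 0.29. Over all tested genes, 10.3%, 26.7% and 26.1% rose and 10.9%, 27.6% and 26.6% fell at the same days. Sat1, the enzyme that starts polyamine breakdown, went from 35.8 ± 1.97 CPM in control to 48.5 ± 5.63 at day 2, 122 ± 7.87 at day 6 and 165 ± 3.08 at day 12 (log2 2.21 ± 0.07 at day 12, edgeR adjusted p = 1.77e-23). Aldh4a1, a mitochondrial enzyme of proline breakdown, went the other way, from 102 ± 1.82 CPM to 72.1 ± 3.83, 36.4 ± 2.79 and 37.7 ± 3.60 (log2 -1.43 ± 0.08 at day 12, edgeR adjusted p = 1.41e-17). Prkab1, a subunit of the energy sensor AMPK, rose by 0.76 at day 6 and 0.87 at day 12. Ddit4, which inhibits mTORC1 under stress, and Ulk2, a kinase that starts autophagy, rose by 0.56 and 0.51 at day 2. Pltp, a phospholipid carrier, rose by 0.94 at day 6.

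Zmat3 (chromosome 3, 32334792 to 32366014, minus strand), a zinc finger protein that binds RNA and acts in splicing and mRNA decay, moved little. It held 35.5, 38.7 and 35.5 CPM in control, 37.8, 41.4 and 32.9 at day 2, 34.3, 31.8 and 29.6 at day 6, and 41.2, 46.9 and 41.7 at day 12. The day 12 libraries lay above the control libraries and the day 6 libraries below them. The log2 fold change was 0.00 at day 2 (interval -0.19 to 0.19), -0.19 at day 6 (interval -0.38 to -0.0016, edgeR adjusted p = 0.0826) and 0.24 ± 0.09 at day 12 (edgeR adjusted p = 0.0197). The day 12 rise was lost with limma on log2(TPM + 1) (adjusted p = 0.520) and in edgeR without control A, control C or day 12 B (0.0657, 0.0745 and 0.134). From day 6 to day 12 Zmat3 rose by 0.43 ± 0.09 (edgeR adjusted p = 0.000456), though not with limma on log2(TPM + 1), which gave 0.22 (adjusted p = 0.418).

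**Figure D3:**
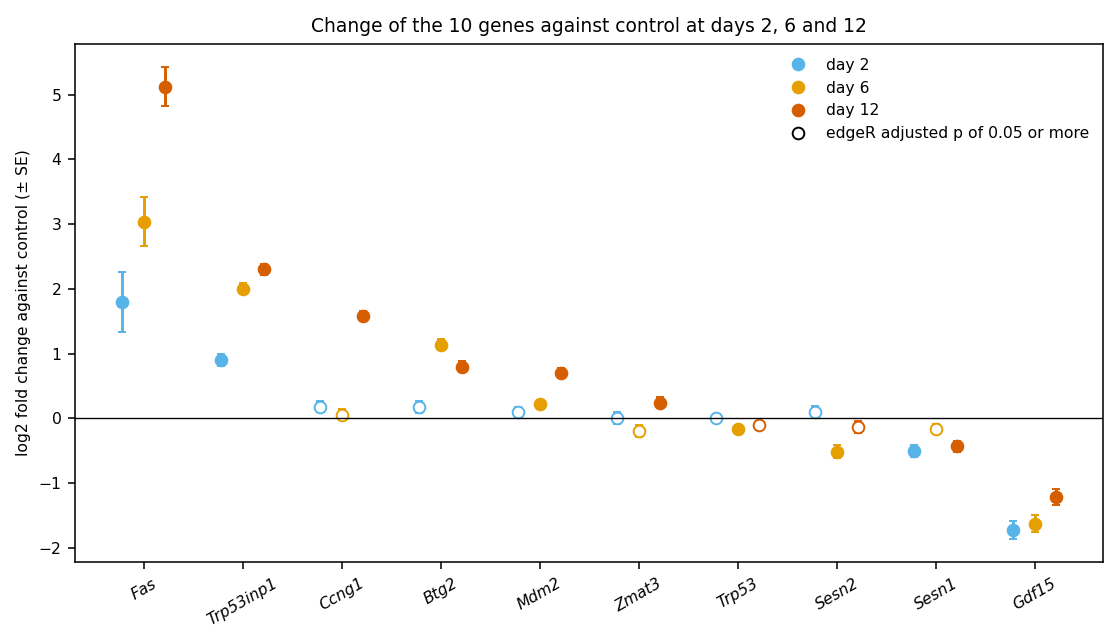
Log2 fold change against control of the 10 genes at days 2, 6 and 12, from edgeR, with bars of 1 standard error. Filled points have an adjusted p under 0.05 and open points do not (Fas had to differ from control by the filter on low counts), and the genes run from Fas (5.12 at day 12) to Gdf15 (-1.22 at day 12).

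Between treated days, 4 members rose and 2 fell from day 2 to day 6, beside 22.6% and 22.3% of all tested genes. From day 6 to day 12, 6 rose and 2 fell, beside 11% and 11%. From day 2 to day 12, 7 rose and 0 fell, beside 22.3% and 21.6%; at an unadjusted p under 0.05 in edgeR 1 was lower (Sesn2), and 0 were with DESeq2 or limma. Among the 6 that rose from day 6 to day 12, Fas (log2 2.08), Ccng1 (1.53), Mdm2 (0.48, edgeR adjusted p = 2.41e-06) and Zmat3 (0.43) moved most. The median log2 change of the members in that interval was 0.40, against 0.01 over all tested genes. With limma on log2(TPM + 1) 3 members rose and 1 fell in that interval. These comparisons share libraries with one another and with the comparisons against control.

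The order of the levels, which can be compared between genes only per length, changed over time. In TPM the control libraries had Trp53 first at 155 ± 9.26, then Gdf15 at 81.6 ± 12.0, Mdm2 at 37.9 ± 3.23, Sesn1 at 24.6 ± 3.02, Ccng1 at 23.2 ± 2.77, Btg2 at 16.7 ± 1.93, Sesn2 at 15.3 ± 1.10, Trp53inp1 at 10.8 ± 2.27, Zmat3 at 8.28 ± 1.27 and Fas at 1.60 ± 1.56 (SD, n = 3). The ranges of Sesn1 and Ccng1, of Btg2 and Sesn2, and of Trp53inp1 and Zmat3 overlapped, so the order within these pairs is not set. At day 12 Trp53 was still first at 151 ± 2.14 TPM, followed by Mdm2 at 76.7 ± 5.79, Ccng1 at 72.1 ± 7.14, Trp53inp1 at 57.6 ± 2.97, Gdf15 at 36.2 ± 6.38, Btg2 at 30.1 ± 2.19, Fas at 26.6 ± 5.15, Sesn1 at 18.4 ± 0.318, Sesn2 at 14.5 ± 1.68 and Zmat3 at 9.17 ± 1.31. There the ranges of Mdm2 and Ccng1 overlapped, and those of Gdf15, Btg2 and Fas all overlapped one another. Gdf15 thus lost its place behind Trp53 to Mdm2, and Trp53inp1 moved above Gdf15.

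The list drawn up for secreted and surface products, which also holds some genes of proteins inside the cell such as the Dusp phosphatases, had the highest medians of the 5 target lists. Of 19 tested genes, 9 rose and 3 fell at day 2, 13 and 3 at day 6, and 15 and 2 at day 12, with medians of 0.20, 0.71 and 0.83 on the log2 scale. Among all tested genes the shares were 10.3%, 26.7% and 26.1% for rises and 10.9%, 27.6% and 26.6% for falls. Kitl, the ligand of the KIT receptor, went from 27.1 ± 1.83 CPM in control to 134 ± 9.99 at day 2, 218 ± 1.70 at day 6 and 192 ± 4.82 at day 12 (log2 2.82 ± 0.07 at day 12, edgeR adjusted p = 5.72e-27). Thbs1, the matrix protein thrombospondin 1, peaked at day 6 with 1872 ± 35.6 CPM, against 313 ± 7.90 in control. Dusp4, a nuclear phosphatase of MAP kinases, rose by 3.32 at day 6 and 2.75 at day 12. Cx3cl1, a membrane-bound chemokine, rose by 1.49 at day 6, and Csf1, the growth factor of macrophages, by 0.68 at day 2. Sulf2, an enzyme that trims heparan sulfate, fell by 1.40 at day 2 and rose by 0.83 at day 12. Many of these genes answer to other signals than p53, and what moved them here was not tested. The fibroblast and smooth muscle marker Acta2 rose over the same days (log2 6.54 at day 12). The other 9 markers of its list summed to 40.9 CPM in control and 63.0 at day 12.

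Among 13 DNA repair targets, 0 rose and 1 fell at day 2, 5 and 4 at day 6, and 4 and 3 at day 12, with medians of -0.01, 0.07 and -0.07. For comparison, 10.3%, 26.7% and 26.1% of all tested genes rose and 10.9%, 27.6% and 26.6% fell at these days. At day 2, 0 were higher also at an unadjusted p under 0.05 in edgeR and with DESeq2 or limma. Ercc5, a nuclease of nucleotide excision repair, rose by 0.91 at day 12, from 14.9 ± 1.25 to 28.2 ± 3.50 CPM, and Polk, a polymerase that copies past lesions, by 0.68. Pcna, the sliding clamp of replication, fell by 0.25 and Trim28, a corepressor, by 0.34 at day 12. Rev3l, the catalytic subunit of polymerase zeta, fell by 0.26 at day 2 and 0.30 at day 6.

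Taking the 5 target lists as 1 set without the members, 24 of 96 tested genes rose and 9 fell at day 2, 47 and 22 at day 6, and 52 and 14 at day 12. Beside them stand the shares of all tested genes, 10.3%, 26.7% and 26.1% rising and 10.9%, 27.6% and 26.6% falling. Their median log2 fold change was 0.08, 0.21 and 0.30, with the median of all genes near 0 as given above. With limma on log2(TPM + 1) the 22 that fell at day 6 became 13, on a scale where the median of all genes was 0.09. The lists were chosen with earlier results of these data known and are given as descriptions.

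**Figure D4:**
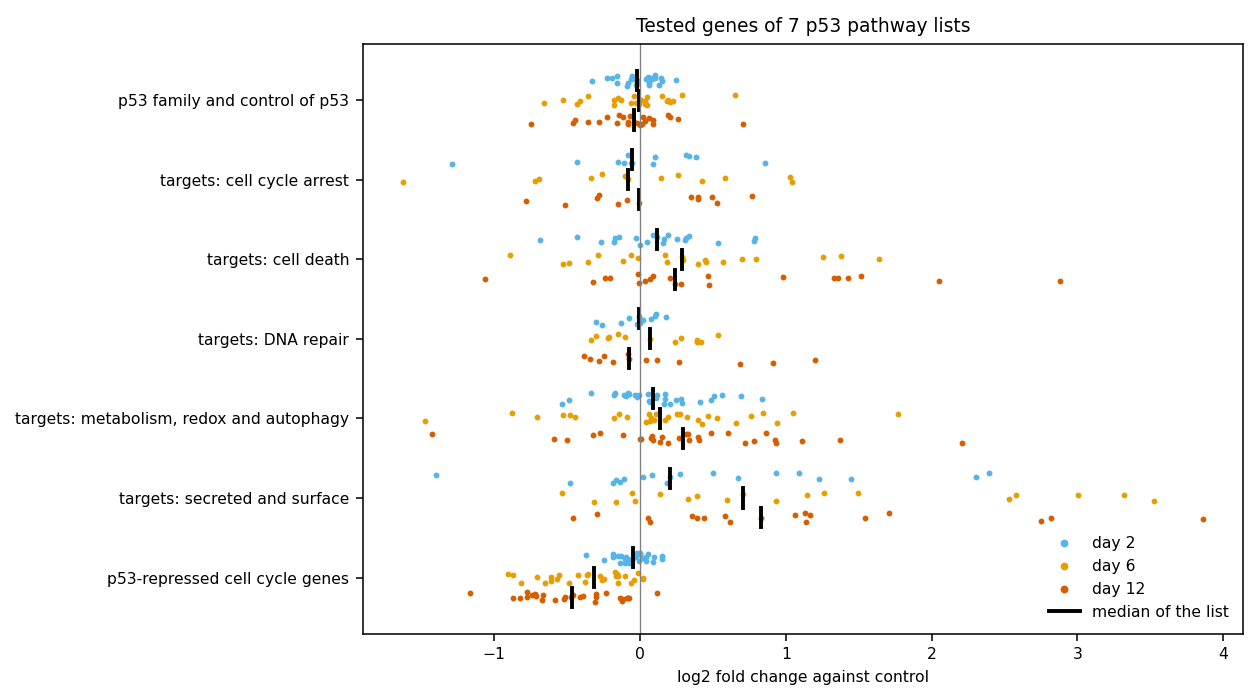
Log2 fold change against control (horizontal axis) of each tested gene in 7 lists of the p53 pathway, at days 2, 6 and 12. Points are genes, with a small vertical spread added for display, and black bars are list medians: those of secreted and surface targets lie at 0.71 and 0.83 at days 6 and 12, and those of the p53-repressed cell cycle genes at -0.32 and -0.47.

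The list of cell cycle genes that p53 is known to lower through p21 had falls mainly at days 6 and 12, while Cdkn1a itself was below control at all 3 days. Of 28 tested, 0 rose and 2 fell at day 2, 0 and 19 at day 6, and 0 and 21 at day 12, with medians of -0.04, -0.32 and -0.47 on the log2 scale. Shares over all tested genes were 10.3%, 26.7% and 26.1% rising and 10.9%, 27.6% and 26.6% falling. At an unadjusted p under 0.05 in edgeR, 1, 0 and 1 were higher at the 3 days; DESeq2 called 0, 0 and 1 higher, and limma 0 at each. Plk1, the kinase of mitotic entry, held 138 ± 6.35 CPM in control, then 131 ± 9.41, 73.3 ± 4.68 and 61.2 ± 5.55 on days 2, 6 and 12 (log2 -1.17 ± 0.07 at day 12, edgeR adjusted p = 4.48e-16). Ccnb1, cyclin B1, fell by 0.70 at day 6 and 0.87 at day 12, and Ccna2, cyclin A2, by 0.61 and 0.67. Cdc20, which activates the anaphase-promoting complex, fell by 0.82 at day 12, and Rrm2, a subunit of ribonucleotide reductase, fell at each day (log2 -0.37, -0.82 and -0.67). The cells were treated at confluence, and no untreated library of a later day was analysed.

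The genes whose log2 CPM followed each of 3 members most closely over the 12 libraries are given as a description, among 10456 genes with a mean of at least 5 CPM. Likeness was Pearson's r over libraries that share their groups and scaling. For Trp53 they were Mrpl40 (r = 0.922), Alg8 (0.921) and Cisd3 (0.916). For Mdm2 they were Filip1l (0.966), Nfkb2 (0.965) and Dok4 (0.965), of which Filip1l went from 56.7 CPM in control to 184 at day 12. For Trp53inp1 they were Lurap1l (0.995), Gli2 (0.992) and Igf2bp3 (0.992), each low in control, at 1.57, 1.32 and 3.84 CPM, and higher at day 12, at 23.6, 21.0 and 34.5 CPM.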

How the data were processed

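PolyA RNA of the line PT-22 was measured in 12 libraries, and groups were taken from the labels. Tools named in the submitters' processing notes are STAR 2.7.8a, RSEM 1.3.3, cutadapt 2.3 and FastQC 0.11.8, on build GRCm38; the annotation and strand setting are not given there. The deposited expected counts are whole numbers without normalization (34 to 60 genes per library have a count of 0 with a TPM above 0), and the TPM values were deposited by the authors as a second table. No column was left out (0). Totals ran from 4326667 to 11654959 counts, and replicates differed by a chi-square per degree of freedom of 2.12 to 7.56, so none was a copy of another.

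In R 4.3.3, edgeR 4.0.16 fitted 1 quasi-likelihood model with robust dispersion to all 12 libraries (filterByExpr by group, minimum count 10, TMM scaling, common biological coefficient of variation 0.0577, residual degrees of freedom 8). Tests were two-sided, adjusted by Benjamini-Hochberg over 13513 genes at 0.05; each SE is the absolute log2 fold change over the root of F, and intervals are 95%. The scripts were tested on simulated data. Alternatives were library totals, no filter, a replicate block, only the 6 libraries compared, DESeq2 1.42.0, limma 3.58.1 on log2(TPM + 1) and log2(TPM + 0.1), and leaving out each library. The members and the 7 lists (161 symbols, 3 without a row) were chosen with earlier results of these data known. Named genes are the members, Pax8 and Cdkn1a whatever their values, and from each list at most 4 genes with the smallest p past the threshold at each day; the nearest 3 genes in pattern were named for Trp53, Mdm2 and Trp53inp1. Some genes that this rule allows are not reported here. Positions are from GENCODE M21, and promoters from RefSeq on GRCm38.p6, where all members but Trp53inp1 and Zmat3 matched.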

Additional observations from a re-analysis of the deposited data

Results flagged for a closer look

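The changes of the 10 members against control differed between the 3 treated days in 21 tested cases over 3 comparisons. Each is taken from the edgeR comparison of the days themselves, in which the control libraries cancel. Of all tested genes, 44.9% were called from day 2 to day 6, 22% from day 6 to day 12 and 43.9% from day 2 to day 12. All values here are log2 differences of the later day against the earlier one, with 3 libraries in each group.

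From day 2 to day 6, Trp53inp1 (1.10), Fas (1.25), Sesn1 (0.34) and Btg2 (0.95) went up, while Sesn2 (-0.60) and Trp53 (-0.17) went down. The Fas difference missed the threshold with limma on log2(TPM + 0.1) (1.64, adjusted p = 0.229). The Trp53 difference had an edgeR adjusted p of 0.0233 and missed the threshold without day 2 A, day 2 B, day 6 A or day 6 B (0.0739, 0.142, 0.0592 and 0.0958), with no filter on low counts (0.0707), and with limma on log2(TPM + 1) (0.552).

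From day 6 to day 12, Fas (2.08), Ccng1 (1.53), Mdm2 (0.48), Zmat3 (0.43), Sesn2 (0.39) and Trp53inp1 (0.30) went up, while Btg2 (-0.34) and Sesn1 (-0.27) went down. Ccng1 had not passed the test against control at day 2 or day 6. Sesn1 missed the threshold with DESeq2 (adjusted p = 0.0506), and Fas with limma on log2(TPM + 0.1) (2.01, adjusted p = 0.253).

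From day 2 to day 12, Fas (3.33), Trp53inp1 (1.40), Ccng1 (1.40), Btg2 (0.62), Mdm2 (0.61), Gdf15 (0.50) and Zmat3 (0.24) went up. The Zmat3 difference (edgeR adjusted p = 0.0298) was lost without day 2 C (0.298) or day 12 B (0.182), with only the 6 libraries compared (0.0618), with DESeq2 (0.0794), and with limma on log2(TPM + 1) and log2(TPM + 0.1) (0.336 and 0.337).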

How the results depend on the processing

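Of the log2 fold changes of members under the alternatives, 703 kept their direction and their side of the threshold, 49 lost a call, 15 gained one and 13 changed sign, all 13 for differences that passed no test. For Zmat3 at day 2 these were -6.608e-05 with library totals, -0.069 and -0.077 with limma on log2(TPM + 1) and log2(TPM + 0.1), and -0.056 to 0.111 without 1 library. For Trp53 at day 2 they were -0.0099 and -0.00998 with limma on these scales and -0.041 to 0.073 without 1 library. Without 1 library, Ccng1 at day 6 ranged from -0.052 to 0.147 and Gdf15 from day 2 to day 6 from -0.039 to 0.218.

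With limma on log2(TPM + 1) and log2(TPM + 0.1), the genes called were 1744 and 1725 at day 2 (2860 in edgeR) and 1379 and 1300 from day 6 to day 12 (2971 in edgeR). Wider targets lower at day 6 were 13 and 13 (22 in edgeR), members higher from day 6 to day 12 were 3 and 2 (6), and members lower were 1 from day 2 to day 6 and 1 from day 6 to day 12 on both scales (2 each). On these 2 TPM scales the median of all genes was 0.12 and 0.13 from day 2 to day 6, and 0.09 and 0.10 at day 6 against control. In edgeR these medians were -0.002 and -0.006. Members lower were 1 from day 2 to day 6 with no filter and 1 from day 6 to day 12 with DESeq2. Without 1 library, members higher at day 2 ranged from 1 (without control C) to 3, members lower from 1 to 3 from day 2 to day 6, from 1 to 2 from day 6 to day 12, and from 0 to 2 from day 2 to day 12. The causes were not tested.

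Same-lettered libraries did not deviate together (r from -0.19 to 0.20, over 0.1 in 4 of 18 pairs; 4 of 12 libraries were nearest to one of their own letter), so the letters are not taken as pairs. A replicate block gave 2932 genes at day 2, and the members lower from day 2 to day 12 became 1 (Sesn2, log2 -0.23, edgeR adjusted p = 0.0475). It also brought Gdf15 from day 6 to day 12 past the threshold (0.39, edgeR adjusted p = 0.00719) and changed no other call of a member. In the main fit that Gdf15 step was 0.41 (edgeR adjusted p = 0.0520). The step also passed in edgeR with no filter (adjusted p = 0.00271) and with only the 6 libraries compared (0.00407), and with DESeq2 (0.0364). Without 1 library its edgeR adjusted p ranged from 0.0256 to 0.230.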
